A study of Drosophila melanogaster with 4 samples.

Results

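The odorant-binding protein (Obp) family of Drosophila melanogaster was followed in whole flies fed glucose or galactose. Members were all genes whose FlyBase symbol starts with Obp and a digit, together with lush, the gene also called Obp76a. The older names Pbprp1 to Pbprp5 all belong to genes already in that set. This gave 52 genes of the 17628 identifiers in the count table, and each of the 52 had a row of counts. Adult flies of the Oregon strain, a laboratory wild type, were 5 days old and had been kept on food with 1 of the 2 sugars, and total RNA came from whole flies. There were 2 libraries of poly-A RNA for each diet. The labels name no mutation or transgene and give neither the sex of the flies nor the number pooled. Separate cultures are not stated for the libraries of 1 diet. The p-values therefore rest on a spread between libraries that may not cover the spread between separate cultures.

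Odorant-binding proteins are small, soluble, secreted proteins held together by disulfide bridges between conserved cysteines. In the antenna, support cells release them into the fluid that bathes the dendrites of olfactory neurons, where they bind odorants and pheromones and shape how these reach the receptors. The family is not confined to smell: some members are made in taste bristles, some in glia or fat body, and some in the male reproductive tract, from which they pass to the female in seminal fluid. A whole-fly library adds up all of these sources, so for any member fewer cells of a type and less RNA per cell cannot be told apart.

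Total counts were between 21147212 and 25497099 per library. Levels are given as CPM, counts scaled to a common library size with trimmed mean of M-values (TMM) factors, and 1 count was worth between 0.0390 and 0.0463 CPM. Markers of both sexes were present in every library: summed egg shell and yolk markers were between 32238 and 37895 CPM, and summed male accessory gland markers between 694.3 and 1524 CPM. Fold changes are galactose over glucose from edgeR's quasi-likelihood test, with p adjusted over all 12529 genes tested by the Benjamini-Hochberg method, a threshold of 0.05, and errors given as SE. That test called 0 of the 12529 genes (0%), with a smallest adjusted p of 0.541, while 1033 genes had an unadjusted p under 0.05.

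By position the family was clustered. In the BDGP6.54 annotation 29 members lay on chromosome 2R, 12 on 3R, 6 on X, 3 on 3L and 2 on 2L. With a gap of at most 100 kb between neighbours, 36 members fell into 8 clusters and 16 stood alone. The largest cluster held 9 genes, Obp56a to Obp56i, over 171 kb of 2R (19697723 to 19868714), and the 4 genes Obp19a to Obp19d lay within 5.24 kb of X (20415744 to 20420979). The genes were short, with a median of 643 exonic bases over the tested members against 1805 over the 12277 tested genes with an annotated length. Exon numbers ran from 1 in Obp28a and Obp99d to 6 in Obp83a.

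Of the 52 members, 31 passed the filter on low counts and were tested, 14 had counts too low to test and 7 had no count in any library. The split was clean: the lowest of the 31 tested members had 99 counts over the 4 libraries and the highest of the untested members had 22. Per kb of exons, the highest mean levels over the 4 libraries belonged to Obp56g at 434.1 CPM per kb and Obp99c at 429.8, followed by Obp44a at 210.6, Obp19d at 160.4, Obp56d at 146.8, Obp99a at 129.1 and Obp51a at 120.6. Obp56g and Obp99c did not differ beyond their spread between libraries: Obp99c was the higher on glucose, with 577.8 against 498.7 CPM per kb, and Obp56g was the higher on galactose, with 369.6 against 281.9. The lowest level among the tested members was that of Obp56i, at 1.79 CPM per kb. The 5 members with the most counts, Obp99c, Obp44a, Obp56g, Obp19d and Obp56d, together made up between 64.1% and 75.3% of all Obp CPM in a library.

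**Figure D1:**
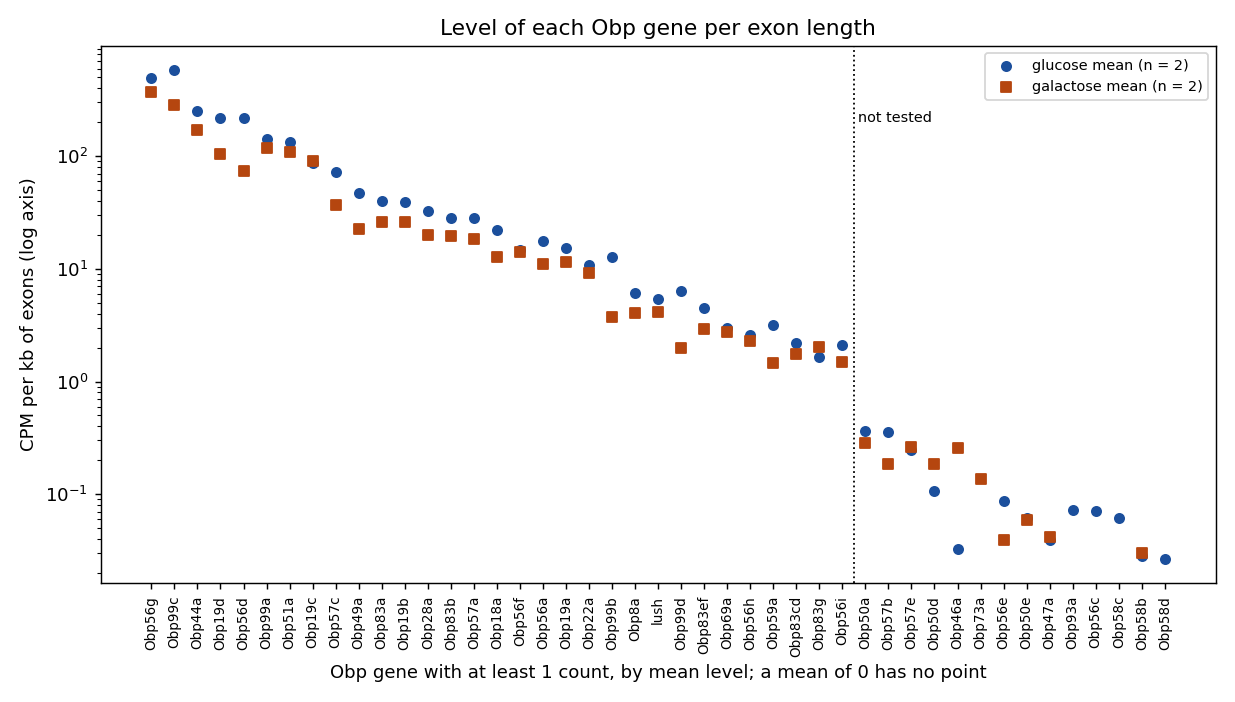
Mean level of each Obp gene with at least 1 count, in CPM per kb of exons on a log axis, for the glucose libraries (circles, n = 2) and the galactose libraries (squares, n = 2), without error bars; the dotted line separates the 31 tested members from those with too few counts. Levels run from 434.1 and 429.8 CPM per kb for Obp56g and Obp99c down to 1.79 for Obp56i, and then drop to the untested members.

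Most members had lower values on galactose. The fold change was below 0 for 29 of the 31 tested members, against 53.1% of all genes tested. Both galactose libraries were below both glucose libraries for 20 of the 31, against 23.4% of all genes, and above them for 0, against 18.8%. The median log2 fold change of the 31 was -0.58, with quartiles of -0.88 and -0.31, while all genes tested had a median of -0.04 and quartiles of -0.40 and 0.28. Summed over the family, CPM was 1904 and 1790 in the glucose libraries and 1203 and 1021 in the galactose libraries. The test called 0 of the 31 members. At an unadjusted p under 0.05 there were 8, all lower on galactose, against 5.16% of all genes in that direction, and 0 were higher, against 3.08%. DESeq2 called 1 member, Obp56d, where it called 0.584% of genes lower on galactose, and limma-voom called 0.

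The libraries did not contribute evenly to this. Galactose replicate 2 had the lowest CPM of the 4 libraries for 20 of the 31 members, against 30.6% of all genes, and glucose replicate 1 was lowest for 0 members, against 27% of all genes. The median deviation of the 31 from their own mean over the 4 libraries, on the log2(CPM + 0.5) scale, was 0.39 in glucose replicate 1, 0.26 in glucose replicate 2, -0.10 in galactose replicate 1 and -0.46 in galactose replicate 2. Genes of similar length also leaned to lower values on galactose: the 2974 tested genes with 398 to 1101 exonic bases, the range of the tested members, had a median log2 fold change of -0.26, with 70.2% below 0 and 29.0% lower in both galactose libraries. The part of transcript length in the Obp values was not tested.

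**Figure D2:**
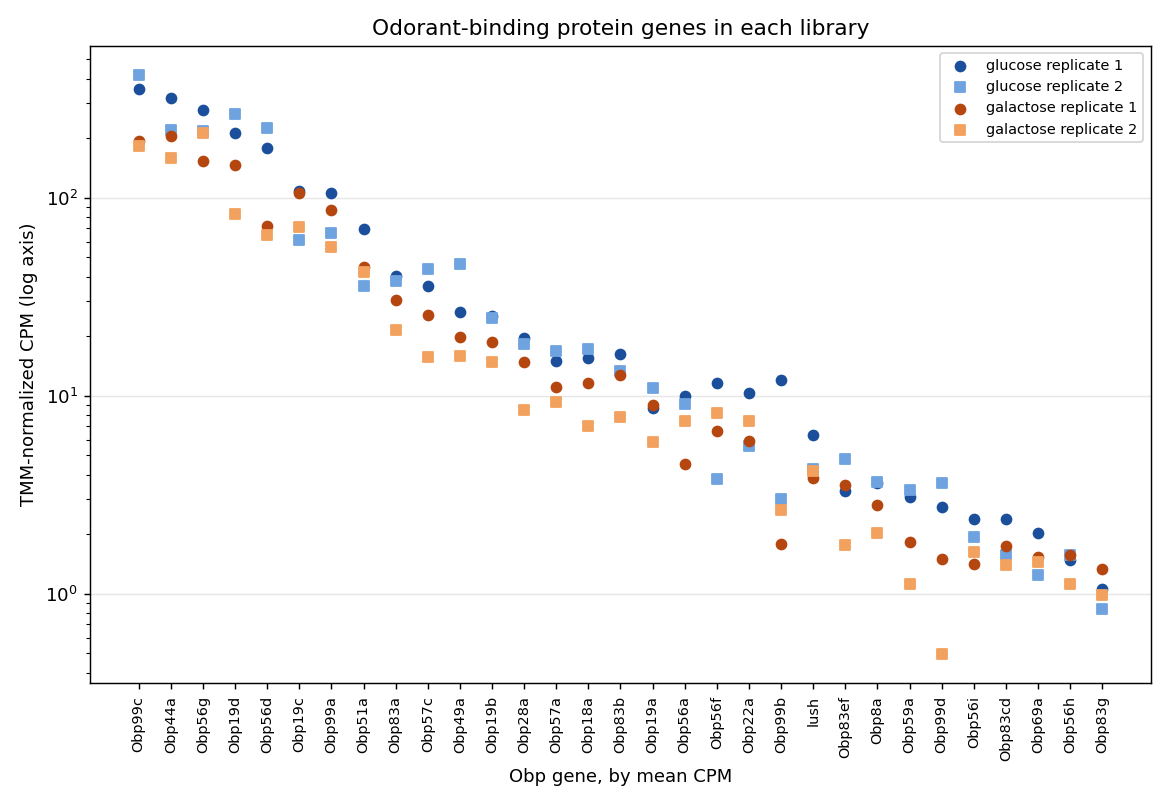
TMM-normalized CPM on a log axis for each of the 31 tested Obp genes, ordered by mean CPM, with 1 point per library (blue for glucose, orange for galactose; circles for replicate 1, squares for replicate 2). For Obp56d the 2 galactose points lie at 71.6 and 65.2 CPM and the 2 glucose points at 178.3 and 226.2, while the points of Obp19c and Obp56f overlap between the diets.

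Among the members known from antennal sensilla, Obp56d stood lowest on galactose relative to glucose. Obp56d (FBgn0034470, 2R, 19702924 to 19703915) is made in organs of smell and taste and in other parts of the body. It had 4575 and 4884 counts on glucose and 1726 and 1451 on galactose, or 178.3, 226.2, 71.6 and 65.2 CPM. The groups did not overlap, and the galactose libraries were close to each other. The log2 fold change was -1.56 ± 0.26, a 2.96-fold lower level, with an adjusted p of 0.541 by edgeR and 0.00284 by DESeq2. In the authors' deposited table, turned to galactose over glucose, its log2 fold change is -1.22 with an adjusted p of 0.00275. Its mean read counts there are 4650 on glucose and 1625 on galactose. The deposited fold change is smaller in size than the ratio of these means, so it is not the same measure as the edgeR value. Obp56d is the 1 Obp gene under 0.05 there, where 0.642% of genes with an adjusted p were called lower on galactose. The DESeq2 call depended on single libraries: its adjusted p was 0.19 without glucose replicate 2, 0.283 without galactose replicate 1, 0.759 without galactose replicate 2 and 0.000156 without glucose replicate 1. In the same order DESeq2 called 0.11%, 0.333%, 0.149% and 1.66% of all genes lower on galactose. The fold change itself was steadier, between -1.73 and -1.38 in the edgeR fits without 1 library.

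Obp19d (FBgn0011280, X, 20419613 to 20420979), formerly Pbprp2, is found in support cells of the antenna and of taste organs. Its levels were 211.2 and 266.3 CPM on glucose and 145.8 and 83.0 on galactose. The groups did not overlap, and galactose replicate 2 was the lowest. The log2 fold change was -1.06 ± 0.33 (edgeR adjusted p = 0.582, DESeq2 0.287).

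The paired genes Obp83a (FBgn0011281) and Obp83b (FBgn0010403), formerly OS-F and OS-E, are made together in sensilla that include those for pheromones and lay within 4.66 kb on 3R. For Obp83a the glucose libraries had 40.5 and 37.9 CPM and the galactose libraries 30.4 and 21.4 (log2 fold change -0.60 ± 0.29). For Obp83b they had 16.2 and 13.4 CPM and 12.7 and 7.82 CPM (-0.53 ± 0.36). In both genes the diets did not overlap and galactose replicate 2 was lowest. For Obp83b galactose replicate 1 lay close under glucose replicate 2. Their edgeR adjusted p were 0.62 and 0.685. The genes are paralogs, and how the counting step treated reads that fit both is not stated.

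Obp28a (FBgn0011283, 2L), an abundant protein of basiconic sensilla, was at 19.6 and 18.2 CPM on glucose and 14.7 and 8.45 on galactose (log2 fold change -0.70 ± 0.36, edgeR adjusted p = 0.626). Obp56a (FBgn0034468, 2R) was at 10.01 and 9.12 CPM on glucose and 4.52 and 7.46 on galactose (-0.68 ± 0.38, 0.642). In these genes the diets were also apart, with galactose replicate 2 the lower for Obp28a and galactose replicate 1 the lower for Obp56a. Obp19a (FBgn0031109, X) was at 8.65 and 10.9 CPM on glucose and 9.01 and 5.84 on galactose, so that its groups overlapped (-0.40 ± 0.37, 0.751).

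The pheromone-binding gene lush (FBgn0020277, 3L), which trichoid sensilla need for the response to the male pheromone cis-vaccenyl acetate, was at a low 6.35 and 4.26 CPM on glucose and 3.86 and 4.18 on galactose. Glucose replicate 2 and galactose replicate 2 were nearly level, and the log2 fold change was -0.40 ± 0.39. Obp59a, known from humidity-sensing sensilla, had 79 and 72 counts on glucose and 44 and 25 on galactose, and a log2 fold change of -1.11 ± 0.44 with an edgeR adjusted p of 0.603. Its groups did not overlap, but 22.2% of its exonic bases are shared with CG30259 on the opposite strand. No strand marking is stated for these libraries, so reads of such partners cannot be told apart. Obp69a (formerly Pbprp1), tied to social responses to the same pheromone, averaged 1.64 ± 0.55 CPM on glucose and 1.49 ± 0.07 on galactose (SD, n = 2). Its fold change of -0.14 ± 0.47 was the nearest to 0 among the antennal members, and 9.71% of its exonic bases are shared with CG32104 on the other strand.

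In all, 10 of the 11 antennal members were tested, all 10 had a fold change below 0, and 8 were lower in both galactose libraries, against 23.4% of all genes and 29.0% of those of similar length. Their median log2 fold change was -0.64, or -0.96 with galactose replicate 1 left out and -0.41 with galactose replicate 2 left out. The remaining member, Obp84a (formerly Pbprp4), had 0 counts in every library. Of its exonic bases 81.2% are shared with Dtwd2 on the opposite strand, so its count is a weak measure of its level.

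Of the 4 taste members 2 were tested, and both had a fold change below 0. Obp49a (FBgn0050052, 2R), a protein of taste sensilla through which bitter compounds dampen the response to sugar, was at 26.6 and 46.5 CPM on glucose and 19.8 and 15.8 on galactose. The diets did not overlap, and glucose replicate 2 stood well above the other libraries. The log2 fold change was -1.04 ± 0.35 (edgeR adjusted p = 0.582, DESeq2 0.379). Obp19b (FBgn0031110, X), also made in taste organs, was at 25.4 and 24.7 CPM on glucose and 18.7 and 14.7 on galactose (-0.58 ± 0.28, edgeR adjusted p = 0.62), with no overlap. Obp57e and Obp57d, known for the taste of plant acids and the choice of egg-laying sites, gave no usable level: Obp57e had 10 counts in all, between 1 and 4 per library, and Obp57d had 0 and shares 100% of its exonic bases with Cpr57A.

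A further set of members was listed as abundant in the body or fat body. In these libraries 2 of them, Obp99d and Obp99b, were low, with means of 2.08 and 4.86 CPM. Obp99c (FBgn0039682, 3R, 29685736 to 29689311) had the most counts of the family, 9125 and 9014 on glucose and 4682 and 4069 on galactose, or 355.6, 417.5, 194.3 and 182.8 CPM. The diets were well apart, and the 2 galactose libraries were close to each other. The log2 fold change was -1.04 ± 0.24, a 2.05-fold lower level (edgeR adjusted p = 0.541, DESeq2 0.171). Opposite-strand overlap touched 3.44% of its exonic bases.

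Its neighbour Obp99a (FBgn0039678) was at 106.0 and 66.1 CPM on glucose and 86.7 and 56.2 on galactose, so that the groups overlapped (-0.27 ± 0.34, edgeR adjusted p = 0.816). Obp99d had 70 and 78 counts on glucose and 36 and 11 on galactose (-1.66 ± 0.59, 0.587), with -2.73 without galactose replicate 1 and -1.08 without galactose replicate 2. Obp99b, expressed in fat cells of males under the sex-determination genes, had 308 and 65 counts on glucose and 43 and 59 on galactose. One library, glucose replicate 1, carried its difference: the log2 fold change was -1.76 ± 0.67 with all libraries (edgeR adjusted p = 0.594) and -0.44 without that library, and the other 3 libraries lay between 1.79 and 3.01 CPM. The 4 genes of the Obp99 cluster, within 45.2 kb on 3R, thus spanned log2 fold changes from -0.27 to -1.76.

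Obp44a (FBgn0033268, 2R), secreted by glia of the brain and able to bind fatty acids, was at 320.7 and 221.0 CPM on glucose and 205.3 and 159.5 on galactose. The diets were apart by only the gap between glucose replicate 2 and galactose replicate 1. The log2 fold change was -0.57 ± 0.29 (edgeR adjusted p = 0.624), and 19.1% of its exonic bases are shared with Pabp2 on the opposite strand. The 5 body members had a median log2 fold change of -1.04, all 5 were below 0, and 4 were lower in both galactose libraries, against the same 23.4% of all genes. Without glucose replicate 1 their median was -0.44. Summed fat body markers were at 1512 and 3515 CPM on glucose and 922.5 and 763.1 on galactose. Much of this sum was the iron carrier Tsf1, at 646.9 and 2981 CPM on glucose and 215.8 and 195.6 on galactose. Without Tsf1 the sums were 864.9 and 533.5 CPM on glucose and 706.7 and 567.5 on galactose, so that the diets overlapped and glucose replicate 2 was lowest. Of the 8 fat body markers 5 were tested, 4 of these were below 0 with 3 lower in both galactose libraries, and their median log2 fold change was -0.64, between -1.26 and -0.46 when 1 library was left out. The part of fat body content in the Obp99 values was not tested.

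Members made in the male reproductive tract behaved differently from library to library. Obp56g (FBgn0034474, 2R, 19783484 to 19784043), a seminal fluid protein of the ejaculatory bulb needed for the mating plug, was at 277.0 and 216.7 CPM on glucose and 154.2 and 211.8 on galactose. Glucose replicate 2 and galactose replicate 2 were almost equal, and the log2 fold change was -0.43 ± 0.28 (edgeR adjusted p = 0.669). Obp51a (FBgn0043530, 2R), transferred in seminal fluid, was at 69.4 and 36.0 CPM on glucose and 44.5 and 42.1 on galactose (-0.29 ± 0.35, 0.808). For Obp22a (FBgn0043539, 2L), also a seminal fluid protein, the levels were 10.3 and 5.56 CPM on glucose and 5.89 and 7.46 on galactose (-0.25 ± 0.42, 0.856). Obp56f (FBgn0043533, 2R) was at 11.6 and 3.80 CPM on glucose and 6.60 and 8.22 on galactose (-0.06 ± 0.54, 0.978). In the last 3 genes the glucose libraries were the highest and the lowest of the 4, so the diets overlapped.

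Lower in level, Obp8a averaged 3.64 ± 0.03 CPM on glucose and 2.42 ± 0.57 on galactose (SD, n = 2; log2 fold change -0.59 ± 0.40 by SE). Obp56i was at 2.16 ± 0.31 and 1.51 ± 0.15 CPM (-0.51 ± 0.42). Obp56e had 3 counts in all and was not tested, with 84.4% of its exonic bases shared with an antisense RNA. The 6 tested members of the male tract had a median log2 fold change of -0.36, all 6 were below 0 and 3 were lower in both galactose libraries, against 23.4% of all genes and 29.0% of those of similar length. The median was -0.63 without glucose replicate 2. Without glucose replicate 1 it was 0.01, and the values of Obp51a, Obp56f and Obp22a were 0.26, 0.96 and 0.26.

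Markers of male tissues showed the same order of glucose libraries as these members. Listed as glucose replicate 1, glucose replicate 2, galactose replicate 1 and galactose replicate 2, median deviations were 0.45, -0.14, -0.17 and -0.06 for the male-tract Obp genes. They were 0.60, -0.52, -0.21 and 0.14 for accessory gland markers, 0.46, -0.14, -0.45 and 0.08 for ejaculatory bulb and duct markers, and 0.61, -0.53, -0.09 and -0.13 for testis markers. In each of these 4 sets glucose replicate 1 was highest. Female germline markers stood at -0.42, -0.07, -0.02 and 0.59, lowest in glucose replicate 1 and highest in galactose replicate 2. The part of the sex mix of the pooled flies in the Obp values was not tested.

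Antennal members had a different profile, with deviations of 0.40, 0.29, -0.10 and -0.58. The 10 tested antenna markers were at 0.26, 0.25, 0.01 and -0.54, and the 12 eye markers at 0.40, 0.38, -0.16 and -0.64. Both marker lists, like the antennal Obp genes, were lowest in galactose replicate 2. So were lists of tissues outside the head, with 0.23, 0.61, -0.08 and -0.60 for muscle markers, 0.27, 0.57, 0.11 and -0.92 for hemocyte markers and -0.14, 0.47, 0.12 and -0.39 for midgut markers. All 10 antenna markers had a fold change below 0, with a median of -0.53, and 7 were lower in both galactose libraries, against 23.4% of all genes. That median was -0.94 with galactose replicate 1 left out and -0.27 with galactose replicate 2 left out. The shared olfactory co-receptor gene Orco was at 9.55 and 11.9 CPM on glucose and 7.76 and 5.26 on galactose (log2 fold change -0.72 ± 0.37, edgeR adjusted p = 0.626). Summed over their lists, antennal Obp genes were at 495.9, 590.8, 296.0 and 205.8 CPM in the same order of libraries, and antenna markers at 87.8, 81.4, 72.3 and 43.5. The galactose over glucose ratio of these sums was 0.462 for the Obp genes and 0.684 for the markers. Most of the Obp sum came from Obp19d and Obp56d, which are also made outside the antenna. Per gene, the median log2 fold change was -0.64 for the antennal Obp genes and -0.53 for the antenna markers. It was -0.78 for eye, -0.76 for muscle, -0.81 for hemocyte and -0.37 for midgut markers. Of these lists, 10 of 12, 7 of 8, 4 of 6 and 2 of 11 tested genes were lower in both galactose libraries. Female germline markers and egg shell and yolk markers went the other way, with medians of 0.59 and 0.09. Whether the antennal Obp values followed the share of antennal or head RNA in a library was not tested.

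**Figure D3:**
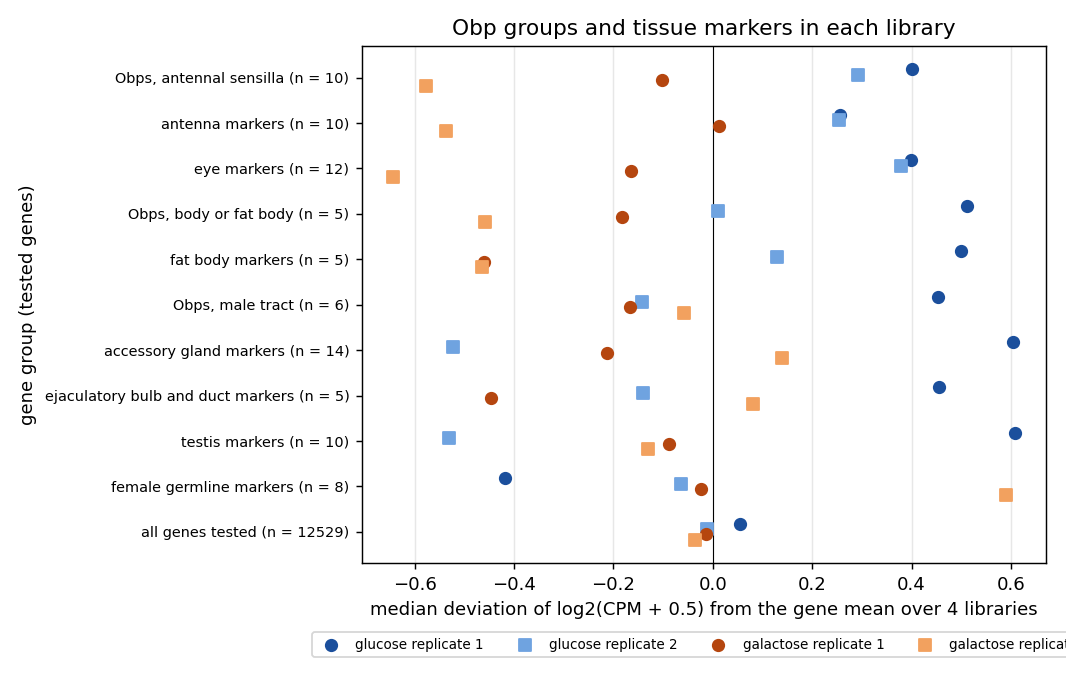
Median deviation of each gene group in each library, on the log2(CPM + 0.5) scale, from the genes' own means over the 4 libraries; n is the number of tested genes, and colours and shapes mark the libraries. Antennal Obp genes, antenna markers and eye markers are lowest in galactose replicate 2 (-0.58, -0.54 and -0.64), whereas male-tract Obp genes and markers of male tissues are highest in glucose replicate 1.

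Members outside the site lists were mixed. Obp57c (FBgn0034509) and Obp57a (FBgn0043535), neighbours on 2R with no agreed function, were both apart between the diets. Obp57c was at 36.0 and 43.8 CPM on glucose and 25.7 and 15.6 on galactose (log2 fold change -0.95 ± 0.33, edgeR adjusted p = 0.582). Obp57a was at 14.9 and 16.9 CPM on glucose and 11.0 and 9.35 on galactose (-0.64 ± 0.31, 0.62). Obp18a (FBgn0030985, X) was at 15.5 and 17.2 CPM on glucose and 11.6 and 7.05 on galactose (-0.81 ± 0.36, 0.607). All 3 genes were lowest in galactose replicate 2.

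Obp19c (FBgn0031111), which lies between Obp19b and Obp19d on X, showed no clear direction, and its sign depended on the scaling and the libraries used. It was at 108.7 and 61.0 CPM on glucose and 106.1 and 71.2 on galactose, with a log2 fold change of 0.06 ± 0.36 (edgeR adjusted p = 0.961), and replicate 1 was the higher library in each diet. Within those 5.24 kb the log2 fold changes were therefore -0.40 for Obp19a, -0.58 for Obp19b, 0.06 for Obp19c and -1.06 for Obp19d. Differences between these neighbours were not tested.

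The Obp83cd and Obp83ef genes, which encode proteins with fused odorant-binding domains, overlap each other on opposite strands over 10.2% of their exonic bases. Obp83cd averaged 1.98 ± 0.57 CPM on glucose and 1.57 ± 0.25 on galactose (SD, n = 2), and Obp83ef averaged 4.06 ± 1.06 and 2.64 ± 1.26. Next to them, Obp83g had 27 and 18 counts on glucose and 32 and 22 on galactose, and its log2 fold change of 0.29 ± 0.49 was the highest in the family. Obp56h, which affects mating behaviour in males, was at 1.53 ± 0.07 and 1.35 ± 0.32 CPM (log2 fold change -0.17 ± 0.46 by SE). In these 4 genes the diets overlapped.

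**Figure D4:**
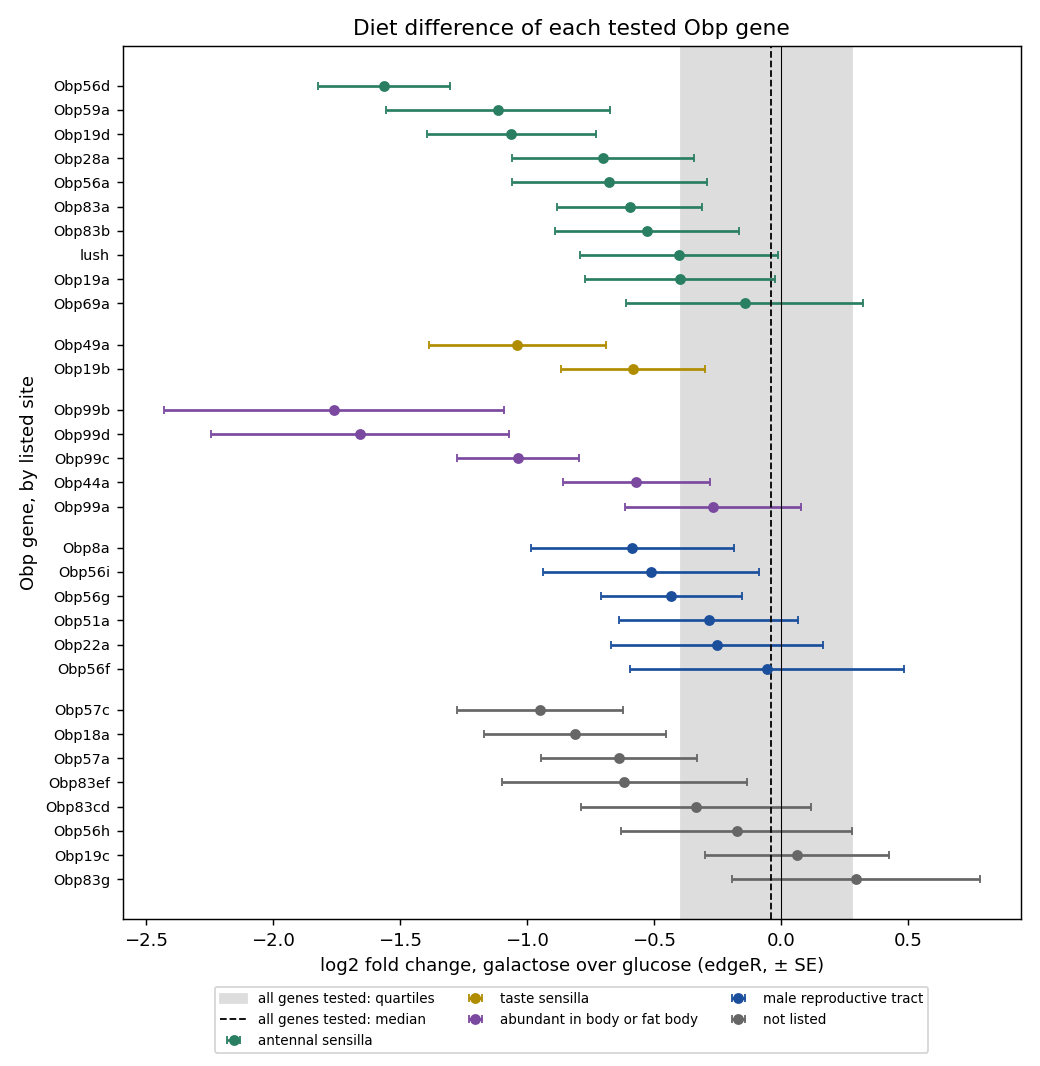
Log2 fold change of galactose over glucose for each of the 31 tested Obp genes, with bars of 1 SE from edgeR, grouped and coloured by the listed site of the gene; the grey band spans the quartiles of all 12529 genes tested and the dashed line is their median of -0.04. Of the 31 points, 29 lie below 0, from -1.76 for Obp99b to 0.29 for Obp83g, and Obp56d has a narrow bar at -1.56.

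The 21 untested members carried almost no reads, with at most 9 counts in any library. Obp50a had the most, 12 summed counts on glucose (95% exact Poisson interval 6.201 to 21.0) and 10 on galactose (4.80 to 18.4). Obp57b had 14 on glucose (7.65 to 23.5) and 7 on galactose (2.81 to 14.4), and Obp46a had 1 (0.0253 to 5.57) and 7 (2.81 to 14.4). Obp73a had 6 counts, all of them in galactose replicate 1. These intervals cover counting error only and leave out the spread between libraries. Obp50d had 3 counts on glucose and 5 on galactose, and Obp50e, Obp56c, Obp58b, Obp58c, Obp58d, Obp47a and Obp93a had at most 4 each over all libraries.

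The 7 members with 0 counts were Obp47b, Obp50b, Obp50c, Obp56b, Obp57d, Obp84a and Obp85a. Of these, 5 share at least 80% of their exonic bases with another annotated gene, as do only 2 of the other members, Obp56e and Obp93a. Obp50b and Obp50c share all of their exons with each other, and Obp47b lies within exons of CG7741. For the genes that share all of their exonic bases, a count of 0 does not bound the transcript level. Reads in shared exons may not be assigned to either gene. For Obp84a, with 81.2% shared, a count of 0 limits the level only through the unshared rest of its exons. Obp56b and Obp85a overlap no other gene, and a count of 0 allows them at most 0.117 to 0.139 CPM per library for 3 counts, an allowance for counting error alone.

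Calls among the members depended on which libraries were used. Without glucose replicate 1, edgeR called 5 members, all lower on galactose, against 2.75% of all genes in that direction: Obp56d (adjusted p = 0.000536), Obp49a (0.00903), Obp19d (0.0322), Obp99c (0.0408) and Obp99d. Without glucose replicate 2 it called Obp56d (0.0217) and Obp99b, against 0.874%. Without either galactose library it called 0 members and 0% of genes. In these fits 1 diet has a single library, which is assumed to vary like the other diet. The sizes of the fold changes also moved: 6 of the 31 members, Obp99c, Obp56d, Obp19b, Obp57a, Obp59a and Obp56i, stayed within 1.5 times their value without any single library. Leaving out galactose replicate 2 moved 20 members by more than that, 14 of them toward or past 0, and leaving out galactose replicate 1 moved 19, of which 13 went farther from 0.

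Other genes of chemosensation gave the family its setting. The receptors themselves were barely measured in whole flies: 7 of 61 odorant receptor genes, 4 of 60 gustatory receptor genes and 13 of 66 ionotropic receptor genes passed the filter, and 0 of them were called by edgeR or DESeq2. Their median log2 fold changes were -0.27, -0.26 and -0.31, with 5, 3 and 9 below 0. The galactose over glucose ratio of their summed CPM was 0.850, 1.05 and 1.19. In the gustatory and ionotropic receptor sums the diets overlapped. Most of the ionotropic receptor sum, 45.2 and 35.9 CPM on glucose and 52.6 and 43.8 on galactose, came from the single gene Ir7c. Of the 13 ionotropic receptors, 5 were lower in both galactose libraries and 2 higher, against 23.4% and 18.8% of all genes. Ir7c was at 30.4 and 21.4 CPM on glucose and 37.4 and 31.9 on galactose (log2 fold change 0.42 ± 0.29, edgeR adjusted p = 0.692). The odorant and gustatory receptor medians changed sign with single libraries left out, while the ionotropic receptor median stayed between -0.55 and -0.27. Leaving out galactose replicate 1 gave medians of -0.80, -1.01 and -0.55 in the same order of lists. Leaving out galactose replicate 2 turned the odorant and gustatory receptor medians to 0.10 and 0.21. The odorant receptor median was also 0.23 when glucose replicate 2 was left out, and the gustatory receptor median 0.07 when glucose replicate 1 was. CheA and CheB genes, whose secreted products act in pheromone responses, had 10 of 20 members tested, all 10 below 0, where 53.1% of all genes were, and 6 lower in both galactose libraries, against 23.4%. Their median was -0.61, or -1.02 without galactose replicate 1 and -0.50 without galactose replicate 2. CheB42c was at 9.12 and 9.26 CPM on glucose and 6.43 and 4.09 on galactose (-0.80 ± 0.38, edgeR adjusted p = 0.615). Membrane proteins and enzymes around the receptors, such as Snmp1 and Est-6, had 7 of 7 tested, all below 0, where 53.1% of all genes were. Their median was -0.45, or -1.03 without galactose replicate 1 and -0.16 without galactose replicate 2. Of these 7 genes 5 are also among the antenna markers, and Est-6 is also among the ejaculatory bulb and duct markers. The antenna markers also hold 2 of the 7 tested odorant receptors and 3 of the 13 tested ionotropic receptors.

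The insect chemosensory proteins are a separate family of small soluble carriers. The 3 listed genes were all below 0, where 53.1% of all genes were. Their median log2 fold change was -0.92, between -1.19 and -0.65 when 1 library was left out. The gene a10 is also of this family, but was counted with the antenna markers and the proteins around the receptors (-0.57 ± 0.34). EbpIII, abundant in the ejaculatory bulb and also made elsewhere, was at 717.2 and 937.6 CPM on glucose and 302.2 and 295.6 on galactose. Its log2 fold change of -1.47 ± 0.25 and its adjusted p of 0.541 by edgeR and 0.00769 by DESeq2 were close to those of Obp56d, and the libraries had the same order in both genes. Both genes were higher in glucose replicate 2 than in glucose replicate 1. The medians of the male-tissue marker lists were instead higher in glucose replicate 1. Summed ejaculatory bulb and duct markers were at 2339 and 1515 CPM in glucose replicates 1 and 2. Of that list, Est-6 was at 277.4 and 234.2 CPM in these libraries, while Gld, at 49.2 and 51.5, went against its list. The part of male tissue content in the EbpIII values was not tested. Phk-3 was at 19.7 and 29.5 CPM on glucose and 13.7 and 12.3 on galactose (-0.92 ± 0.32, edgeR adjusted p = 0.582), with the same order of libraries as Obp56d and EbpIII.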

How the data were processed

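The authors deposited raw read counts per gene for 4 libraries, as integers that sum to unlike totals. HTSeq 0.6.1, TopHat2 2.0.12, Bowtie2 2.2.3 and DESeq2 are the tools, and BDGP6 the build, that the submitters' processing notes name; no source here gives the strand setting of the counting. In the authors' deposited comparison table, per the file headers, each diet has a mean read count, used as a signal, a log2 fold change of glucose over galactose, and a raw and an adjusted p-value. Of 17628 identifiers 17252 were paired with a symbol by the reference gene table; another 306 FlyBase identifiers held 4.72% of counts and 70 newly assembled ones 0.00806%, and all stayed in the tests. The BDGP6.54 annotation, whose assembly is the release the authors used, gave lengths, overlaps and positions.

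Counts were tested with edgeR 4.0.16 in R 4.3.3 (quasi-likelihood F test, TMM, filterByExpr by diet with minimum count 10 and minimum total 15, no block, Benjamini-Hochberg adjustment). The SE of a log2 fold change is its size divided by the square root of F. DESeq2 1.42.0, limma-voom (limma 3.58.1), other scalings and filters, a replicate block and leaving out each library were alternatives. The scripts were tested on simulated counts. The members, the site lists and the marker lists were chosen with earlier results of these data known, so their directions are no independent evidence, and no list was tested as a set. Members whose mean reached 5 CPM, and any called by a tool, are given in every library; other tested members are given by level. Of other lists at most 2 members with the smallest p among those whose mean reached 5 CPM were to be named; Snmp1 is named as an example of its list without a value. Protein and promoter sequences were not used here.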

Additional observations from a re-analysis of the deposited data

How the results depend on the processing

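With all 4 libraries edgeR called 0 genes and 0 Obp members under TMM, median-of-ratios and upper-quartile scaling, with no filter on low counts, with a filter of 1 CPM in 2 libraries and with the replicate block, and limma-voom also called 0. DESeq2 called 88 genes, 1 Obp member and 2 members of the chemosensory and marker lists (EbpIII and Tsf1). The replicate numbers are shared between the diets, but nothing in the labels pairs the libraries; deviations of same-numbered libraries correlated with r = 0.263 across 12529 genes. With the replicate block the Obp median was -0.59, and DESeq2 with the replicate block called 131 genes and the same member, Obp56d. Leaving out 1 library at a time, edgeR called between 0 and 549 genes, between 0 and 5 Obp members and between 0 and 12 list members, and DESeq2 called 328, 17, 48 and 22 genes without glucose replicates 1 and 2 and galactose replicates 1 and 2, with 3 Obp members in the first case and 0 in the others. The Obp median lay between -0.83 and -0.42 in those fits and was -0.54 with median-of-ratios and -0.68 with upper-quartile scaling. Upper-quartile scaling shifted the median of all genes by -0.11. Leaving out galactose replicate 1 moved that median by -0.12.

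Of the 20 members with at least 5 CPM, 15 kept the sign of their fold change under the 11 alternatives in which it was compared, which leave out DESeq2 with the replicate block or without 1 library. Obp19c turned to -0.051 with upper-quartile scaling and lay between -0.32 and 0.54 when 1 library was left out. The same ranges were -0.68 to 0.11 for Obp99a, -0.68 to 0.26 for Obp51a, -0.62 to 0.26 for Obp22a and -0.64 to 0.96 for Obp56f. Obp56f also turned to 0.012 with median-of-ratios scaling, 0.021 with DESeq2, 0.13 with limma-voom and 0.13 with the replicate block. None of these values passed the threshold, and the cause was not tested. With 2 libraries per diet, a fold change that misses the threshold is not shown to be absent.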
